A study of Mus musculus with 4 samples.

Results

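Keratinocytes, the main cells of the epidermis, release cytokines that draw in and keep immune cells. Langerhans cells, the resident antigen-presenting cells of the epidermis, lie among the keratinocytes and depend on them. Here 9 genes of this exchange were followed through P38 dorsal skin of the mouse by spatial transcriptomics. *Il34* encodes a ligand of CSF1R that Langerhans cells need for their upkeep. *Ccl20*, *Ccl27a*, *Cxcl14* and *Cxcl12* encode chemokines, secreted proteins that guide migrating cells. *Tslp* and *Il33* encode alarmins, which epithelia release when they are damaged. *Cd207* encodes langerin, the lectin of Birbeck granules and a marker of Langerhans cells, although not of these cells alone. *Epcam* encodes an adhesion molecule found on epithelial cells and on Langerhans cells.

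The 9 symbols were chosen by name and matched 11 of 32286 features. *Ccl27a* stood under 3 identifiers, of which ENSMUSG00000073888 held 17428 UMIs and the others 0. The near-identical *Ccl27b* held 1 UMI, so how reads were split between these copies is uncertain. All samples came from *R26-tdTomato; Krox20-CreERT* mice, in which CreERT follows *Krox20* and can switch on the tdTomato reporter, and 4-hydroxytamoxifen had been given at P2. No other genotype, treatment or age was compared, so regions of the same skin were compared instead. Each of the 4 slices held sections of the same 3 mice and is a technical replicate. The p-values from sums per slice therefore measure the spread between slices and not between mice.

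The slices held between 19393026 and 26910422 UMIs, and the 6411 spots with at least 250 genes had a median of 12618 UMIs. A spot covers more than 1 cell, so fewer cells of a type and less RNA per cell cannot be told apart. Of 2485 distinct barcodes, 1842 occurred in more than 1 slice, since a Visium barcode marks a fixed place on the grid. Regions came from 12 clusters made without the 9 genes. The epidermis (779 spots) was led by *Lce1m*, *Lor* and *Krt77*. The upper follicle (679 spots), the sebaceous gland (243 spots) and the lower follicle (2478 spots) were named from their marker lists in the same way. With 16 clusters in place of 12, the epidermis had 430 spots. A further cluster of 450 spots was then named from leukocyte markers, led by *Defb6*, *H2-Ab1* and *Ccl21a* and with 8 dermal markers up. Its overlap with the 779 epidermis spots is not given here. No cluster was led by dermal genes, so the dermis stands for 259 spots whose dermal marker score was the highest, of which 96 lay within 0.25 SD of another list. Of these spots, 90 were taken from the epidermis cluster and 95 from the upper follicle cluster, the regions the dermis is then compared with. The layers were mixed, with a median of 10293 CPM of *Col1a1* in epidermis spots and 13214 CPM in dermis spots. *Krt79*, a marker on the upper follicle list, went against that name, with a median of 1227 CPM in epidermis spots and 550 CPM in upper follicle spots. In 1 cluster of the lower follicle (278 spots), 97.1% of spots lay in slice 1. Levels are in CPM, a gene's UMIs scaled to the total UMIs of the same spots. The 830 muscle spots, whose own cells should lack keratinocyte cytokines, served as a background for these, although they also held dermal markers (10191 CPM). A second cluster named from muscle markers (123 spots) was not part of this background. It had more *Il34* (9.29 ± 8.23 CPM on 10 UMIs), *Ccl27a* (210 ± 45.3), *Cxcl12* (210 ± 64.0), *Cxcl14* and *Epcam* than the 830 spots. Its mean of *Il33* (18.2 ± 21.7 CPM) rests on 7 UMIs. Slice 1 held 1 spot of this cluster, in which 1 *Il33* UMI gave 49.9 CPM, and slices 2 to 4 had 4.89, 14.7 and 3.51 CPM. The cluster had less *Tslp*, on 1 UMI, and 0 UMIs of *Ccl20* and *Cd207*, counts too few to compare.

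The genes lie on several chromosomes (GRCm38). *Il34* lies at chr8:110741829-110805924, *Ccl20* at chr1:83116766-83119167, *Cxcl14* at chr13:56288643-56296551 and *Cxcl12* at chr6:117168535-117181367. *Il33* lies at chr19:29925114-29960718, *Cd207* at chr6:83671215-83677857 and *Epcam* at chr17:87635979-87651129. *Ccl27a*, at chr4:41769467-41774247 on the minus strand, overlaps the last bases of *Il11ra1*, which ends at 41769474 on the plus strand.

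The promoter windows of *Ccl20*, *Il33* and *Cd207*, which were highest in the epidermis, are shown beside that of *Cxcl14*, which was highest in the upper follicle. Each runs from 250 bases before to 50 bases after the start in RefSeq (GRCm38.p6), 5′ to 3′ on the strand of the gene. Capitals mark matches to 6 motifs that are spelled out or named after the sequences.
*Ccl20* (chr1:83116516-83116815, plus strand): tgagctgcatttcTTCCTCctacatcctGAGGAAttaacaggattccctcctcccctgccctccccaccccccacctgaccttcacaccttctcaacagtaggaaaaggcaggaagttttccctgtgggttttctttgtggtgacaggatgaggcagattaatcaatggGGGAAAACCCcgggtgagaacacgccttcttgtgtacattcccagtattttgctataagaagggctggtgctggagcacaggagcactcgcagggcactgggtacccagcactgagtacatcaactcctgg
*Il33* (chr19:29924863-29925162, plus strand): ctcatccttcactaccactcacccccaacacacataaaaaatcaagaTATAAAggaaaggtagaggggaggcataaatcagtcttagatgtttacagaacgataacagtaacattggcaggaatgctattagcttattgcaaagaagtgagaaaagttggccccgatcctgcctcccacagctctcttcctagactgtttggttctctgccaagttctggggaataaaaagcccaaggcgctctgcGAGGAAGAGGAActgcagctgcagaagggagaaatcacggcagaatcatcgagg
*Cd207* (chr6:83677808-83678107, minus strand): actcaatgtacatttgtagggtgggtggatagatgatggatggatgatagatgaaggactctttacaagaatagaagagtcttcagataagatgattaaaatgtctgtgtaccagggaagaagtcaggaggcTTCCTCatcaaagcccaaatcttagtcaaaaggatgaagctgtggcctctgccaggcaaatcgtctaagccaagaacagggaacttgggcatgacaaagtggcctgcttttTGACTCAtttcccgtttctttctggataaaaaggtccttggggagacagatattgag
*Cxcl14* (chr13:56296502-56296801, minus strand): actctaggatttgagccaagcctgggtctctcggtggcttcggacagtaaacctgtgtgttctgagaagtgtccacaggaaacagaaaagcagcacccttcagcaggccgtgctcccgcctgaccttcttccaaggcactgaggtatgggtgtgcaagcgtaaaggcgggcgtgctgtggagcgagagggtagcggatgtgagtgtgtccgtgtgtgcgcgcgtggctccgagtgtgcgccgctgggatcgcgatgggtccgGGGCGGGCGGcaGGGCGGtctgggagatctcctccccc

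The windows differed in CpG content. That of *Ccl20* held 3 CpG dinucleotides, that of *Cd207* 2 and that of *Il33* 6, whereas that of *Cxcl14* held 22 and that of *Cxcl12* 20. That of *Epcam*, also highest in the upper follicle, held 11. Among 32851 promoter windows of the same length the median was 7, 47.9% held at most 6 and 26.5% held at least 20. The *Cd207* window matched TGANTCA, the letters that AP-1 factors bind, at 7 bases before the start, as did 7.81% of all windows on either strand. The *Ccl20* window matched the κB motif, which NF-κB binds, at 81 bases before the start, as did 1.75% of all windows. The core GAGGAA, read on both strands, was in the windows of *Ccl20*, *Il33* and *Cd207* and in 28.3% of all windows. The *Il33* window shown held TATAAA on the printed strand at 203 bases before the start, and the window of a second *Il33* start (chr19:29945540-29945839, not shown) held it at 29 bases before, as did 8.32% of all windows at any place. The *Cxcl14* window held GGGCGG at 3 places, partly overlapping, and 35.7% of all windows held it on either strand. The E-box CACGTG was in the window of *Epcam*, in 7.15% of all windows and in none of the 4 windows shown. A match describes these letters only. Windows were found for 7 of the 9 genes.

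The 9 genes fell into separate patterns across the skin. *Il34*, *Ccl20*, *Il33* and *Cd207* had their highest level in the epidermis, and *Cxcl14*, *Cxcl12* and *Epcam* in the upper follicle. *Ccl27a* was shared by epidermis, sebaceous gland and upper follicle, and *Tslp* lay near the level of muscle spots. The map of the slices shows spots with *Il34* and *Cd207* along the epidermis of each section.

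**Figure D1:**
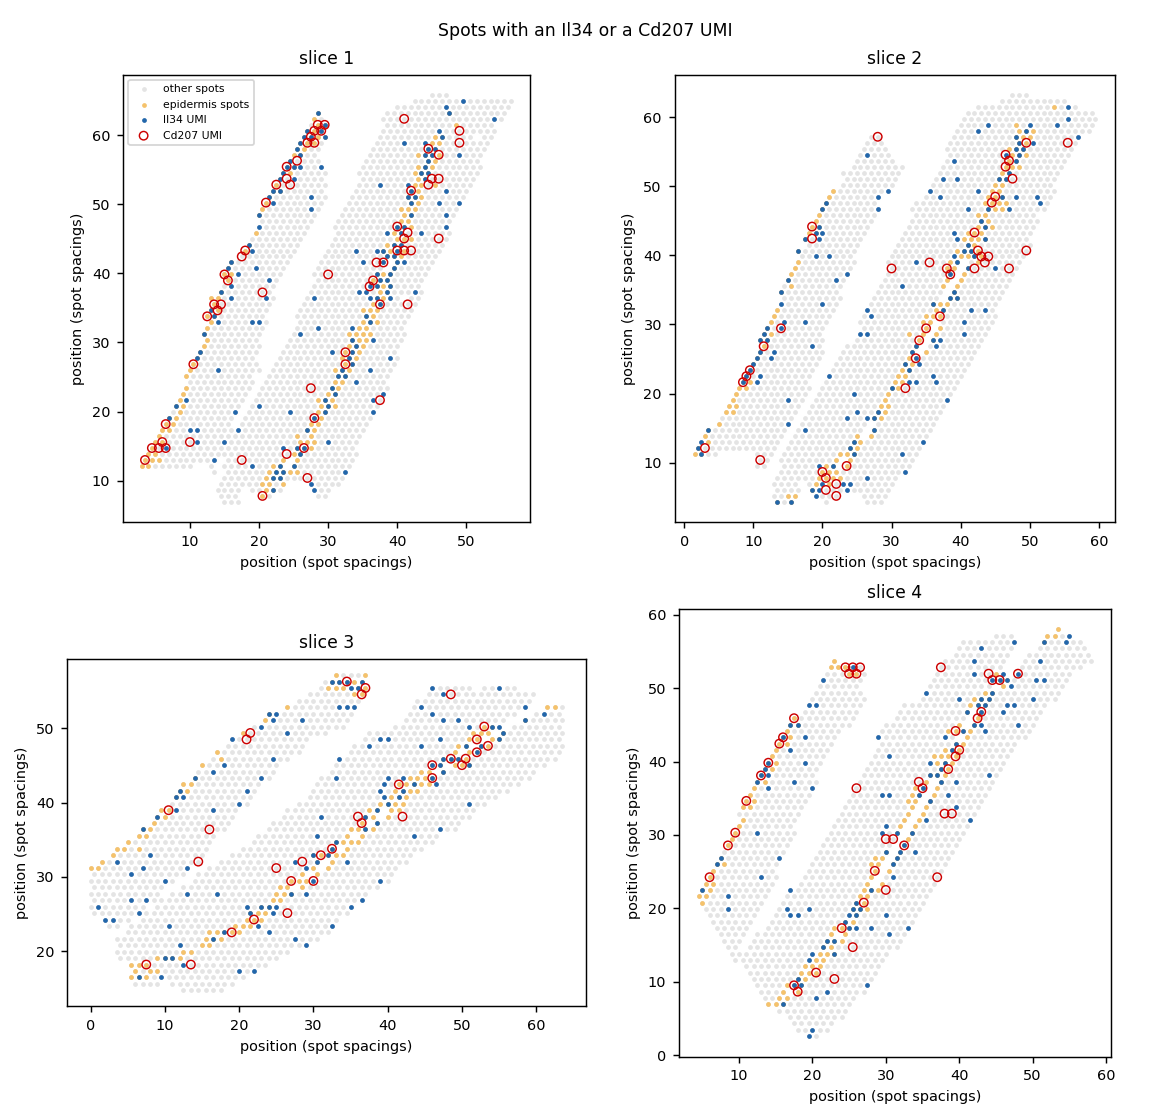
Positions of the spots of the 4 slices, with epidermis spots and the spots that held an *Il34* or a *Cd207* UMI marked as in the legend. Of 572 spots with *Il34*, 261 were epidermis spots, and of 180 spots with *Cd207*, 106 were.

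*Il34* had 684 UMIs in all, of which 51.8% lay in the epidermis, a region with 7.79% of all UMIs. Its level in the epidermis was 47.5, 54.6, 45.7 and 51.4 CPM in slices 1 to 4, and in the upper follicle 8.23, 7.87, 9.03 and 7.22 CPM. Every epidermis value lay far above every upper follicle value. The log2 fold change of epidermis over upper follicle was 2.65 (standard error 0.19, adjusted p = 2.52e-12) in edgeR's quasi-likelihood test with Benjamini-Hochberg adjustment over 11086 genes, the test behind every adjusted p that follows. Against the dermis it was 2.42 (standard error 0.23, adjusted p = 2.02e-09). The dermis had 11.04 ± 6.36 CPM (SD, n = 4 slices), the sebaceous gland 9.64 ± 1.74 and the lower follicle 2.78 ± 0.397. Dermis, sebaceous gland and upper follicle did not pass the test against each other (adjusted p from 0.728 to 0.983). Dermis values were uneven, from 3.09 CPM in slice 1 to 18.6 CPM in slice 3. Muscle spots had 4.37 ± 0.243 CPM, above the lower follicle.

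*Il33*, a nuclear cytokine of the IL-1 family, had a similar order with fewer UMIs. Its level in the epidermis was 19.2, 13.1, 19.3 and 24.1 CPM in slices 1 to 4. The sebaceous gland had 12.003, 7.40, 5.75 and 7.79 CPM and the upper follicle 3.80, 3.15, 7.83 and 3.61 CPM. The epidermis overlapped neither, although its lowest slice lay close to the highest slice of the sebaceous gland. The log2 fold change was 2.09 (standard error 0.26, adjusted p = 1.33e-07) over upper follicle and 1.21 (standard error 0.31, adjusted p = 0.00591) over sebaceous gland. The latter call was lost without slice 4, at 1.07 (adjusted p = 0.0714), and with each spot thinned to 5500 UMIs, at 1.35 (adjusted p = 0.0539). The dermis had 5.63 ± 1.97 CPM and muscle spots 4.27 ± 0.426 CPM, so the dermis and the upper follicle lay near the level of muscle spots. That level is no floor for *Il33*, since the lower follicle had 1.63 CPM on 56 UMIs. Upper over lower follicle gave a log2 fold change of 1.33 (adjusted p = 0.000978 in edgeR). Lower follicle over dermis gave -1.63 (adjusted p = 0.00153 in edgeR). A small cluster of 18 spots with nerve markers held 7 *Il33* UMIs, or 39.5 ± 23.5 CPM.

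*Ccl20*, the ligand of CCR6, was rare, with 90 UMIs in 79 spots, and did not pass the filter on low genes. The epidermis held 61.1% of its UMIs. Its level there was 6.03, 9.86, 9.29 and 6.98 CPM in slices 1 to 4, and 2.53, 1.57, 1.81 and 1.03 CPM in the upper follicle. The sebaceous gland had 0, 5.92, 1.92 and 4.68 CPM on 8 UMIs in all, and its highest slice came close to the lowest of the epidermis. Fitted without the filter, the epidermis exceeded the upper follicle by 2.17 on the log2 scale (standard error 0.45, adjusted p = 2.78e-05 in edgeR) and the dermis by 2.42 (adjusted p = 0.000808). Against the sebaceous gland the value was 1.26 (adjusted p = 0.165), which did not pass. The lower follicle held 6 UMIs and muscle spots 2.

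*Cd207* marked the same region. Its 216 UMIs lay in 180 spots, and the epidermis held 61.1% of them. The epidermis had 16.95, 17.1, 17.9 and 22.8 CPM in slices 1 to 4, the sebaceous gland 6.86, 4.44, 7.67 and 4.68 CPM and the upper follicle 4.43, 3.15, 1.81 and 1.03 CPM. Each epidermis value lay above all values of the other regions. The log2 fold change was 2.87 (standard error 0.35, adjusted p = 1.08e-07) over upper follicle, 1.69 (standard error 0.41, adjusted p = 0.00348) over sebaceous gland and 1.92 (standard error 0.37, adjusted p = 0.000295) over dermis. With spots thinned to 5500 UMIs the call over the dermis was lost, at 1.19 (adjusted p = 0.0895), as was that over the sebaceous gland, at 0.999 (adjusted p = 0.215). The dermis had 4.78 ± 3.75 CPM with 1 slice at 0, the lower follicle 0.437 ± 0.309 and muscle spots 0.778 ± 0.894. Upper follicle, sebaceous gland and dermis did not pass the test against each other (adjusted p from 0.225 to 0.862 in edgeR).

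*Tslp*, whose product signals through CRLF2 and IL7R, had 106 UMIs in 101 spots. Its level was 3.02 ± 1.48 CPM in the epidermis, 1.95 ± 1.08 in the upper follicle, 1.90 ± 1.001 in the dermis and 1.64 ± 1.89 in the sebaceous gland. Muscle spots had 1.59 ± 0.420 CPM, within the spread of these regions. In the fit without the filter on low genes, the epidermis differed from the lower follicle (log2 fold change 1.90, adjusted p = 0.000819 in edgeR), and its other contrasts gave adjusted p from 0.635 to 0.748.

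*Ccl27a*, a ligand of CCR10, was the cytokine that epidermis and upper appendages shared. Its level was 721, 804, 679 and 838 CPM in the epidermis, 686, 738, 608 and 818 CPM in the sebaceous gland and 679, 611, 615 and 693 CPM in the upper follicle. The slices of these regions overlapped. Epidermis over upper follicle gave 0.26 (standard error 0.10, adjusted p = 0.065 in edgeR), and epidermis over sebaceous gland gave 0.11 (adjusted p = 0.579 in edgeR). Within slices the epidermis was ahead in 4 of 4 in both comparisons. With slice as a replicate block the first became a call, at 0.25 (adjusted p = 0.00223), and with regions drawn from marker scores without clusters it turned to -0.46 (adjusted p = 0.00666). The dermis had 381 ± 33.7 CPM and the lower follicle 74.01 ± 5.68, which the epidermis exceeded by 3.26 on the log2 scale (adjusted p = 3.38e-21). Muscle spots had 55.4 ± 15.4 CPM.

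*Cxcl14*, a chemokine of epithelia, and *Cxcl12*, the ligand of CXCR4 and ACKR3, had their lowest level of the 5 regions in the epidermis. *Cxcl14* was 669, 638, 644 and 663 CPM in the upper follicle and 292, 293, 344 and 330.4 CPM in the epidermis. *Cxcl12* was 263, 263, 300.5 and 311 CPM in the upper follicle and 87.4, 92.04, 95.7 and 86.2 CPM in the epidermis. Neither pair overlapped. Epidermis over upper follicle gave -1.03 (standard error 0.11, adjusted p = 8.20e-09) for *Cxcl14* and -1.63 (standard error 0.11, adjusted p = 3.43e-13) for *Cxcl12*. *Cxcl14* was 452 ± 109 CPM in the sebaceous gland and 451 ± 33.1 in the lower follicle, which did not pass the test against each other (adjusted p = 0.455), and 403 ± 32.4 in the dermis. *Cxcl12* was 195 ± 36.6 CPM in the dermis, 153 ± 8.72 in the lower follicle and 144 ± 17.3 in the sebaceous gland, and the lower follicle passed the test against neither (adjusted p = 0.113 and 0.166). Epidermis over dermis gave -1.08 (standard error 0.12, adjusted p = 2.27e-08) for *Cxcl12* and -0.32 (standard error 0.11, adjusted p = 0.0418) for *Cxcl14*. The call for *Cxcl14* was lost without slice 1, at -0.25 (adjusted p = 0.214), and without slice 2, at -0.29 (adjusted p = 0.201). Muscle spots had 242 ± 18.95 CPM of *Cxcl14* and 83.3 ± 6.96 CPM of *Cxcl12*, the latter overlapping the epidermis.

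*Epcam* did not share the order of *Cd207*. It was 568, 513, 504 and 569.6 CPM in the upper follicle, 430.4, 411, 334 and 471 CPM in the sebaceous gland and 303, 291, 306 and 325 CPM in the epidermis. The upper follicle lay above the other regions in each slice. Epidermis over upper follicle gave -0.79 (standard error 0.10, adjusted p = 2.61e-07), and epidermis over sebaceous gland -0.41 (standard error 0.10, adjusted p = 0.00559). The latter call was lost without slice 2, at -0.39 (adjusted p = 0.0674), and with regions drawn from marker scores without clusters it turned to 0.08. The dermis had 269 ± 31.99 CPM and did not pass against the epidermis (0.22, adjusted p = 0.154), except with slice as a replicate block (0.22, adjusted p = 0.0402). The lower follicle had 204 ± 8.54 CPM and muscle spots 100 ± 13.1.

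**Figure D2:**
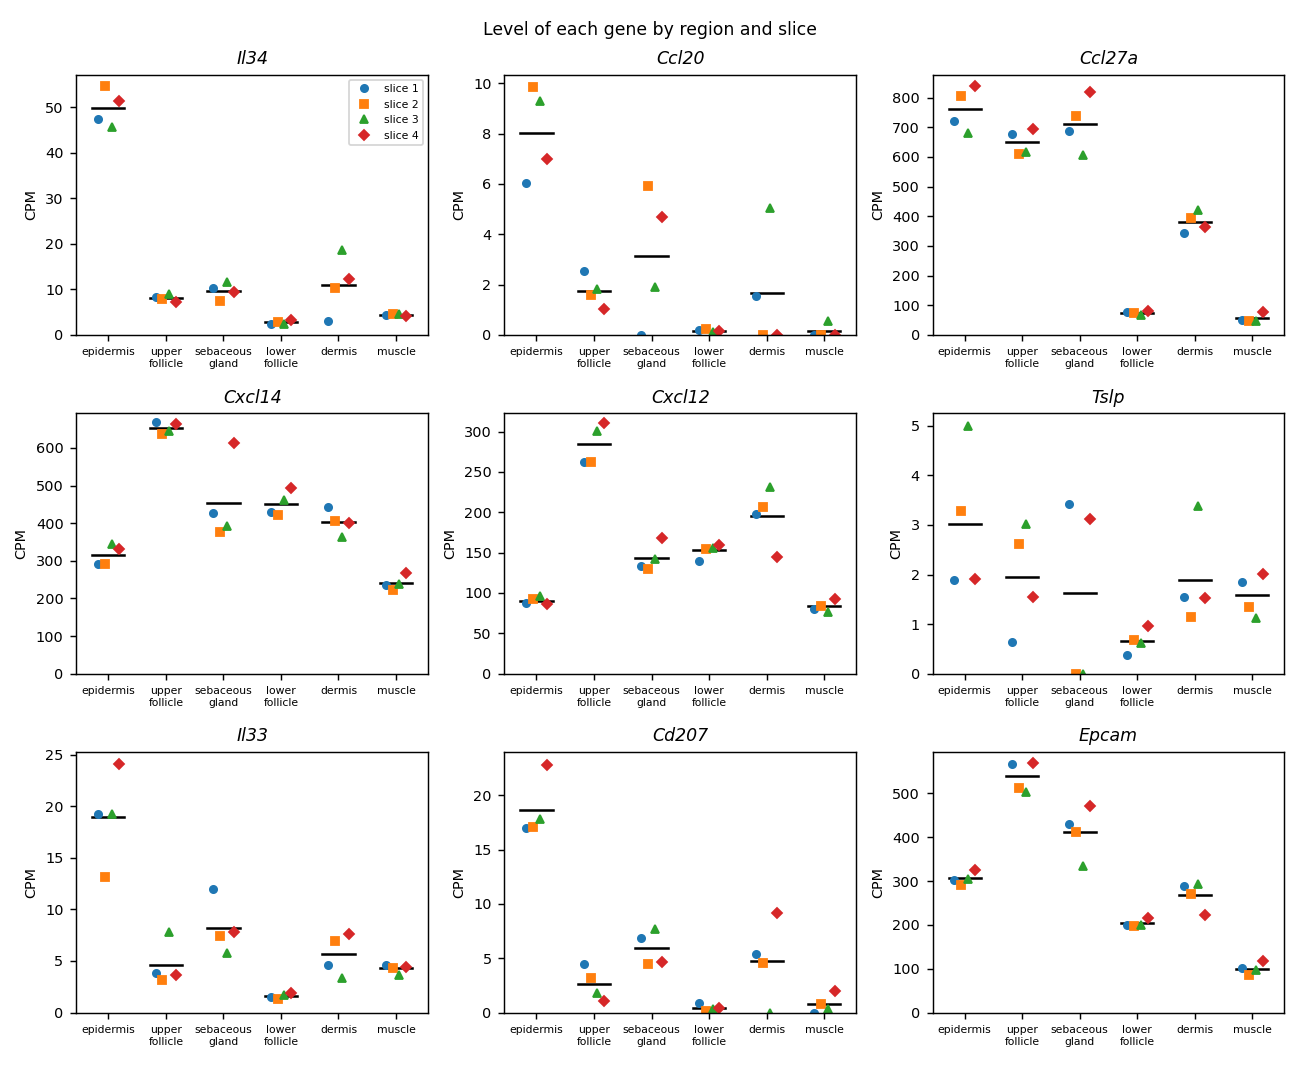
Level in CPM of each gene in 5 regions and in muscle spots, by slice. *Il34* in the epidermis sits between 45.7 and 54.6 CPM, above all other regions, and *Cxcl12* in the upper follicle above the epidermis in each slice.

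Of the 9 genes, 7 passed the filter on low genes and were tested. Between epidermis and upper follicle 6 of them differed, 3 in each direction, where 24.6% of all genes were called. Between epidermis and sebaceous gland 6 differed (13.8% of all genes), between epidermis and lower follicle 7 (52.4%) and between epidermis and dermis 6 (18.4%). Between upper follicle and sebaceous gland 3 differed (11.8%), between upper and lower follicle 7 (47.4%) and between upper follicle and dermis 4 (15.9%), each of them higher in the upper follicle. Between sebaceous gland and lower follicle 5 differed (40.7%), between sebaceous gland and dermis 3 (12.5%) and between lower follicle and dermis 6 (34.8%). With the UMIs of 3 tissue strips as the sums in place of slices, 3 genes differed between epidermis and sebaceous gland (*Il34*, *Il33* and *Cd207*). The log2 fold changes that lost their call stayed near their values, at -0.63 for *Cxcl12*, -0.47 for *Cxcl14* and -0.36 for *Epcam* (adjusted p from 0.0527 to 0.0778 in edgeR). Between lower follicle and dermis 4 genes differed with strips. A strip is a run of tissue with an epidermis of its own in each slice. *Xist*, as a share of the UMIs of *Xist* and Y-linked genes, was 84.9% to 91.8% in strip 3. In strips 1 and 2 it was 7.68% to 14.1%. Strip 3 thus differed from strips 1 and 2 in sex, and hence in animal. Differences between strips cannot be told apart from differences between mice. *Cd207* in the epidermis was 24.2, 17.9 and 13.8 CPM in strips 1 to 3 and *Il34* 42.3, 55.8 and 50.3 CPM, while *Ccl27a* was 564, 945 and 762 CPM.

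**Figure D3:**
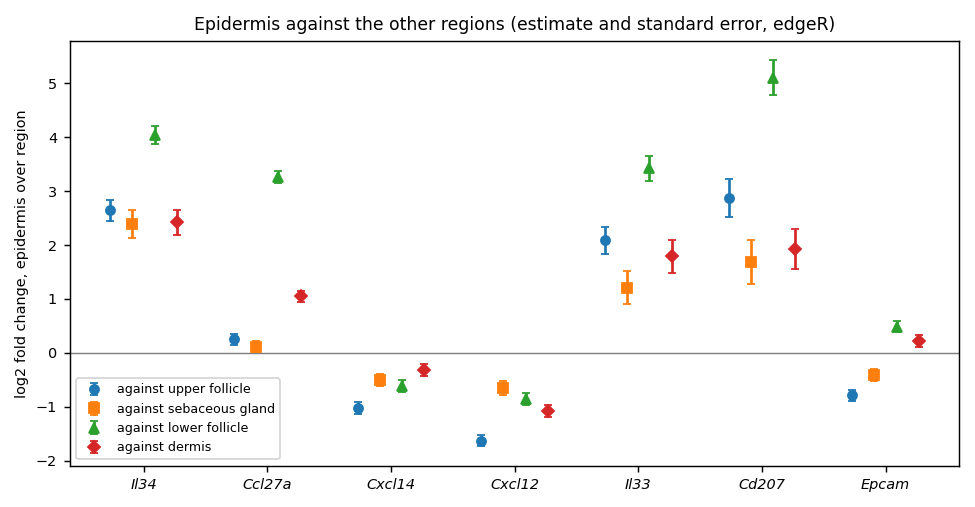
Log2 fold change of the epidermis over each of the other regions for the 7 genes tested, with its standard error from edgeR. *Il34*, *Il33* and *Cd207* lie above 0 against each region, and *Cxcl14* and *Cxcl12* below 0.

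Shares of spots with a UMI were compared at 5500 UMIs per spot, because epidermis spots had a median of 8591 UMIs, upper follicle spots 9446 and muscle spots 14390 (shares without thinning follow in parentheses). *Il34* was found in 22.9% ± 1.77 of epidermis spots (32.96% ± 5.08) and 2.62% ± 0.347 of muscle spots (6.20% ± 0.765). *Cd207* was found in 8.90% ± 1.81 of epidermis spots (13.6% ± 2.27) and 0.359% ± 0.376 of muscle spots (0.998% ± 0.987). *Il33* was found in 9.81% ± 2.92 of epidermis spots (14.97% ± 4.93) and 2.17% ± 0.476 of muscle spots (6.06% ± 0.606). These shares stood clear of the muscle background.

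*Ccl20* was found in 3.62% ± 0.774 of epidermis spots (6.19% ± 0.226) and 0.0983% ± 0.197 of muscle spots (0.239% ± 0.478). *Tslp* was found in 1.45% ± 0.630 of epidermis spots (2.60% ± 0.986) and 0.870% ± 0.174 of muscle spots (2.19% ± 0.545), a gap within the spread between slices. *Cxcl12* was about as frequent in epidermis as in muscle spots, with 36.2% ± 1.21 (48.2% ± 6.40) against 35.8% ± 3.18 (66.02% ± 3.03), and reached 75.1% ± 2.12 of upper follicle spots (85.5% ± 5.55). *Ccl27a*, *Cxcl14* and *Epcam* were common, with 95.2% ± 1.37, 77.9% ± 3.24 and 77.8% ± 1.54 of epidermis spots, against 24.99% ± 3.39, 69.9% ± 2.07 and 41.2% ± 3.26 of muscle spots. Muscle spots are no floor for *Cxcl12*, since its level was 53.3 ± 6.93 CPM in 887 unnamed spots and 17.7 ± 8.19 CPM in 115 spots led by *Mlana*. Thinning left out 134 of 779 epidermis spots, 97 of 679 upper follicle spots and 16 of 830 muscle spots.

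Distance from the epidermis was followed as a description with no test. Each spot was given the number of grid steps between it and its closest epidermis spot. Step 0 is the epidermis region itself, so its values repeat those above, and only the later steps add to them. *Il34* went from 49.8 ± 3.97 CPM in the epidermis (step 0) to 10.6 ± 2.50 at step 1 and 4.91 ± 1.24 at step 2. *Cd207* went from 18.7 ± 2.79 to 5.20 ± 1.77 and 0.994 ± 0.458 CPM, and steps 0 and 1 held 61.1% and 21.3% of its UMIs. Both were concentrated at the surface. *Il33* was 6.62 ± 1.29 CPM and *Ccl20* 2.76 ± 0.519 CPM at step 1. *Ccl27a* was 690.5 ± 83.03 CPM at step 1, near its level in the epidermis, and 271 ± 40.5 at step 2.

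*Cxcl12* took another course, with 90.4 ± 4.38 CPM at step 0, 204 ± 17.000 at step 1, 253 ± 14.98 at step 2 and 79.2 ± 7.11 at step 5. *Cxcl14* was 532 ± 36.1 CPM at step 1 and 539 ± 31.1 at step 2, and *Epcam* was highest at step 1, with 466 ± 42.1 CPM. Over steps 0, 1 and 2 the summed dermal markers went from 34197 to 28847 and 13868 CPM while *Cxcl12* went up. *Krt14*, a keratin of basal and outer root sheath cells, went from 2966 to 4661 and 7356 CPM over the same steps, and its part in the course of *Cxcl12* was not tested.

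**Figure D4:**
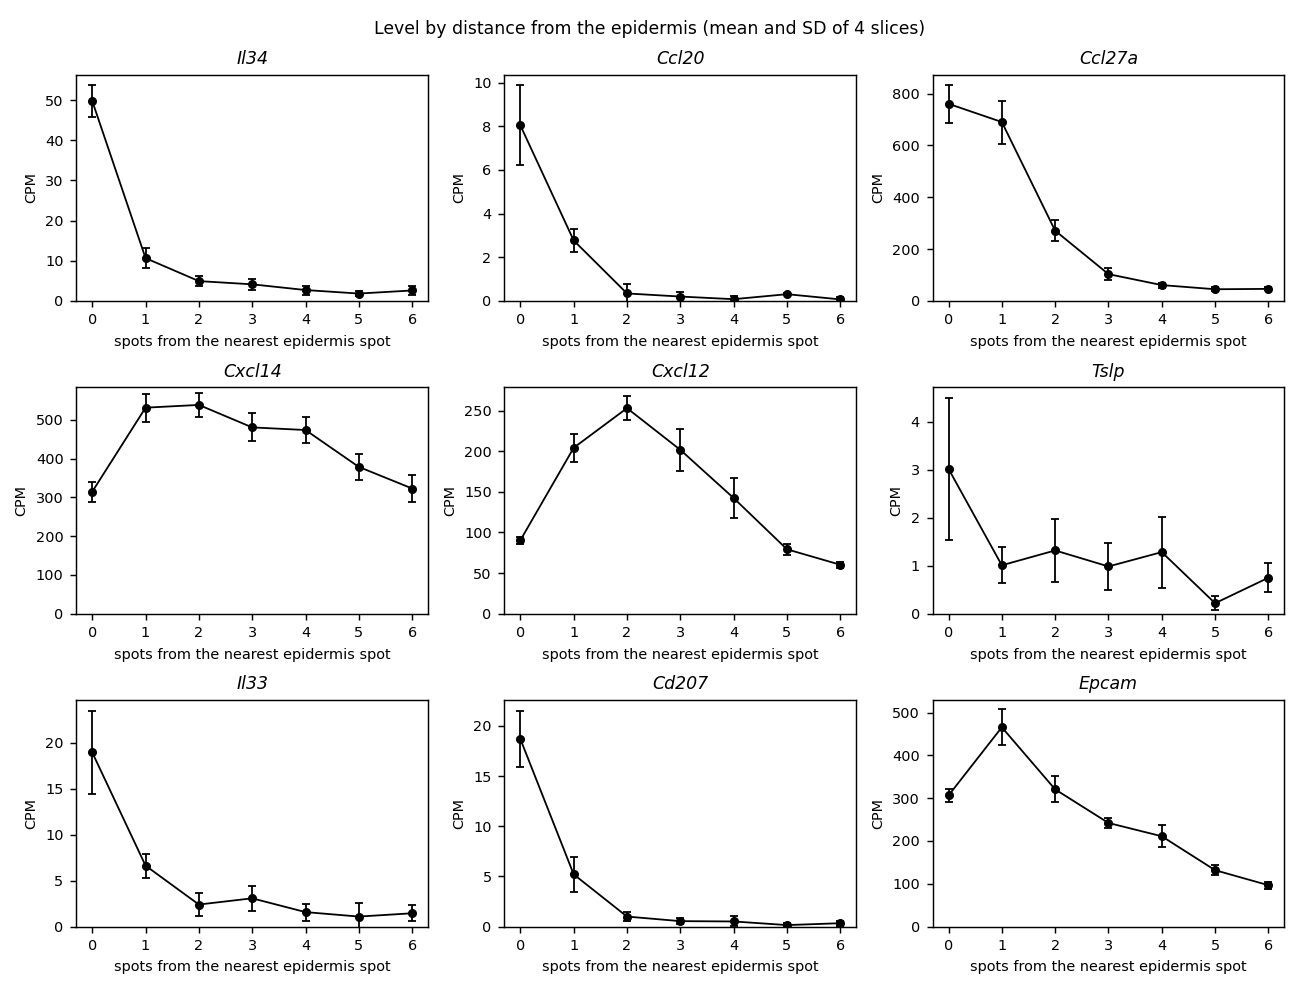
Level in CPM against the number of grid steps from the nearest epidermis spot, as mean and SD of 4 slices. *Il34* and *Cd207* drop after step 0, and *Cxcl12* is highest at step 2.

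The cytokines were then set against the sites of *Cd207* inside the epidermis, at equal depth. Of 645 epidermis spots with at least 5500 UMIs, 93 held *Cd207*, and 56.8 would be expected to at 5500 UMIs. An exact two-sided sign-flip permutation test over 4 slices cannot go below p = 0.13, so no ratio could be called. *Il34* had 50.4 CPM in spots with *Cd207* and 50.2 CPM in spots without, with log2 ratios of -0.44, -0.62, 0.11 and 0.67 in slices 1 to 4. *Il33* had log2 ratios of 0.32, 1.34, 0.02 and -1.20 and *Epcam* of 0.00, 0.31, 0.12 and -0.24. None of these had a common sign, and neither did *Ccl27a*, with a mean of -0.06 ± 0.15 (SD). *Tslp* gave no ratio, with 3 UMIs in *Cd207* spots and 15 in the others.

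*Ccl20* lay above 0 in 4 of 4 slices. Its log2 ratios were 0.59, 3.76, 0.57 and 0.64, with a mean of 1.39 ± 1.58 on 15 UMIs in *Cd207* spots and 30 in the others. Slice 2, which stood apart, held a *Cd207* spot with 4 *Ccl20* UMIs, and without slice 2 the mean was 0.60. Counted as spots without thinning, 11 of 106 epidermis spots with *Cd207* held *Ccl20* (10.4%) and 37 of 673 spots without *Cd207* did (5.50%), at median depths of 9189 and 8547 UMIs. The mean log2 ratio of these shares was 0.88 ± 0.51. Thinned to 3000 UMIs, or without thinning, the ratio was above 0 in 3 of 4 slices, with means of 0.93 ± 1.38 and 0.99 ± 0.98.

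*Cxcl14* and *Cxcl12* lay below 0 in 4 of 4 slices. The log2 ratios of *Cxcl14* were -0.02, -0.23, -0.46 and -0.44, and those of *Cxcl12* -0.93, -0.18, -0.29 and -0.24. With spots of high dermal score left in the epidermis cluster, *Cxcl12* lay above 0 in 1 slice and *Cxcl14* in 2, and *Cxcl14* also did so in 2 slices with thinning to 3000 UMIs and in 1 without thinning. In the same spots dermal markers had a mean log2 ratio of -0.14 ± 0.12 and leukocyte markers one of 0.25 ± 0.13, below and above 0 in 4 of 4 slices. Their part in the ratios of the chemokines was not tested.

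**Figure D5:**
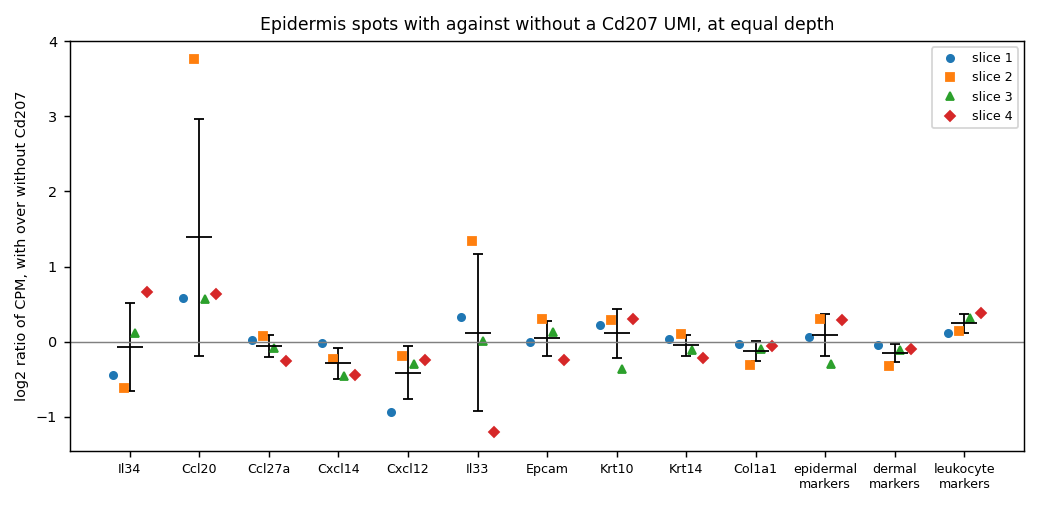
Log2 ratio of CPM in epidermis spots with over without a *Cd207* UMI for genes and summed marker lists, at 5500 UMIs per spot, by slice (points) and as mean and SD (bars). *Ccl20* lies above 0 in all 4 slices, with slice 2 at 3.76, and *Il34* lies on both sides of 0.

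*Epcam* was found in 583 of the 645 spots, or in an expected 503.9 at 5500 UMIs. *Il34* was lower in spots with *Epcam* in 4 of 4 slices, with a mean log2 ratio of -0.28 ± 0.13, and *Cxcl12* was higher in 4 of 4, with 0.26 ± 0.14. Without thinning the means were -0.23 ± 0.25 and 0.10 ± 0.39, with *Il34* below 0 in 3 slices and *Cxcl12* above 0 in 2. With regions from marker scores without clusters they were -0.11 ± 0.22 and 0.19 ± 0.21, each with its sign in 3 slices. *Krt10*, a keratin of the upper layers, was also lower in 4 of 4 slices (-0.24 ± 0.19), and its part in the ratio of *Il34* was not tested. *Cd207* had log2 ratios of -0.06, 1.19, 0.61 and -0.03 with *Epcam*, without a common sign.

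In the upper follicle and sebaceous gland, 27 of 774 spots with at least 5500 UMIs held *Cd207* (14.4 expected at 5500 UMIs). These held 3 *Il34* UMIs, 1 *Ccl20* UMI and 2 *Il33* UMIs, too few for a ratio. *Ccl27a* had a mean log2 ratio of -0.05 ± 0.49 with *Cd207*. *Epcam* was found in 754 of the 774 spots, or in an expected 694.4 at 5500 UMIs, and the other spots held 45 *Ccl27a* UMIs. The level without *Epcam* therefore also draws on spots that held it and could lose it by thinning. With *Epcam*, *Ccl27a* was higher in 4 of 4 slices, at 678 against 426 CPM (mean log2 ratio 0.69 ± 0.24). Dermal markers were lower in those spots in 4 of 4 slices (-0.24 ± 0.09) and epidermal markers higher (0.14 ± 0.06), and their part in the ratio was not tested.

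A list of 12 receptors was sparsely detected. It holds receptors of the cytokines and also *Ccr2*, *Ccr7* and *Ccr8*, which are not receptors of these cytokines. Of the 12, 6 passed the filter. Of these, 5 were higher in the epidermis than in the upper follicle, *Ccr2* among them, and 0 lower (24.6% of all genes were called). Against the dermis 1 was higher (*Il1rap*) and 0 lower, where 18.4% of all genes were called. *Csf1r*, the receptor of IL-34, which macrophages also carry, was 38.04 ± 3.81 CPM in the epidermis and 15.4 ± 2.44 in the upper follicle, which gave 1.35 (standard error 0.18, adjusted p = 5.34e-07) on the log2 scale in edgeR. The dermis had 30.6 ± 7.12 CPM and did not pass against the epidermis (adjusted p = 0.282). *Ackr3*, a receptor of CXCL12, was 20.9 ± 3.05 CPM in the epidermis and 13.6 ± 3.64 in the upper follicle (0.69, adjusted p = 0.00962 in edgeR). In the dermis *Ackr3* was 22.1 ± 4.77 CPM and did not pass against the epidermis (-0.05, adjusted p = 0.925 in edgeR). *Cxcr4*, the other receptor of CXCL12, gave -0.52 for epidermis over upper follicle (adjusted p = 0.137 in edgeR). *Ccr6*, *Ccr10* and *Il1rl1*, receptors of CCL20, CCL27 and IL-33, did not pass the filter.

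Genes of antigen presentation were higher in the epidermis, with 9 of 9 tested called over the upper follicle (24.6% of all genes) and 5 over the dermis (18.4%). Their median log2 fold change was 1.62 and 0.60, where that of all genes was 0.02 and -0.01. *Cd74* was 738 ± 109 CPM in the epidermis and 205 ± 14.8 in the upper follicle, and *H2-Ab1* 558 ± 34.04 and 142 ± 15.1. With 16 clusters, both were among the leading genes of the cluster named from leukocyte markers, apart from the epidermis. Both belong to the MHC class II pathway, which Langerhans cells share with other dendritic cells, macrophages and B cells. T cell genes were likewise higher, with 4 of 4 tested called over the upper follicle and 3 over the dermis, and *Cd3g* was 17.2 ± 2.68 CPM in the epidermis and 3.70 ± 0.535 in the upper follicle. Their medians were 2.71 and 1.79.

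Of 9 tested macrophage genes, 1 (*Lyz2*) was higher in the epidermis than in the upper follicle, where 24.6% of all genes were called, and 3 (*Lyz2*, *C1qc* and *F13a1*) were lower than in the dermis, where 18.4% were, with medians of 0.38 and -0.45. Their summed level was 498 ± 88.9 CPM in the dermis and 363 ± 62.8 in the epidermis. Of 3 tested mast cell genes, 1 (*Mcpt4*) was higher than in the upper follicle and 0 differed from the dermis in edgeR (adjusted p from 0.353 to 0.967). Of 5 tested epithelial genes, 3 (*Krt14*, *Krt5* and *Cldn4*) were lower in the epidermis than in the upper follicle, as *Epcam* was. *Krt14* and *Krt5* had not been kept out of the clustering, and *Krt5* is on the outer root sheath marker list, so their differences are not independent of the regions.

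Of 24 other skin cytokines, 12 passed the filter. Over the upper follicle 6 were higher in the epidermis and 1 lower, where 24.6% of all genes were called. Over the dermis 3 were higher (*Il18*, *Cxcl16* and *Il1rn*) and 0 lower, a share near the 18.4% of all genes called there. *Il18*, a cytokine that keratinocytes store, was 90.1 ± 17.6 CPM in the epidermis and 24.6 ± 5.44 in the upper follicle, which gave 1.88 (standard error 0.17, adjusted p = 4.28e-10) on the log2 scale in edgeR. *Cxcl16* was 67.8 ± 13.6 and 27.3 ± 4.99 CPM. *Il1rn*, the antagonist of IL-1, was 70.4 ± 10.01 and 40.3 ± 4.45 CPM, and 76.7 ± 7.29 CPM in the lower follicle. *Ccl8* was 167 ± 64.04 and 168 ± 50.4 CPM and did not pass (adjusted p = 0.943 in edgeR).

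The genes most like each of the 9 over 20 sums of slice and region are given as a description, since sums of a slice share a library. *Il34* was closest to the cornified envelope genes *Lce1m* (Pearson r = 0.957), *Lce1a2* and *Lce1b*, and *Ccl27a* to *B2m* (0.986), *H2-K1* and *Krt79*. *Il33* was closest to *Kctd12* (0.942), *Dusp1* and *Dgcr6*, and *Cd207* to *Tmub1* (0.918), *Kctd12* and *Klk9*. *Epcam* was closest to *Glrx* (0.975), *Spint2* and *Slc43a2*, *Cxcl12* to *Pfn2* (0.957) and *Ywhaq*, and *Cxcl14* to *Tuba1c* (0.931), *Afdn* and *Fam167a*. *Ccl20* and *Tslp*, with few UMIs, were closest to *Gdi2* (0.898), *Dap3* and *Wnk1*, and to *Art4* (0.831), *Pld2* and *Mr1*. Among the 9 genes, *Cd207* had r = 0.895 with *Il33*, 0.764 with *Il34*, 0.195 with *Epcam* and -0.618 with *Cxcl12*.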

How the data were processed

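The authors deposited UMI counts per gene and spot from Space Ranger 2.0.1 on mm10, without normalization. The study left out 1 section, and since its spots are not given in the sources used here, all spots were used. Spots with at least 250 genes were kept (9 of 6420 removed), and no doublet caller was run. Clusters came from Seurat 5.3.0 in R 4.3.3 (2000 variable genes, 30 components, 20 neighbours, resolution 0.7), made without 87 genes. The 9 genes and the fixed lists were among them, except *Krt5* and *Krt14* of the epithelial list, which were not kept out. A cluster was named by the best of its marker lists, if at least 4 markers had a log2 fold of 1 or more and the list's mean was 0.4 or more. These limits, and the use of marker scores for the dermis, were set after the clusters were seen.

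Sums of UMIs for each slice and region (20 in all) entered a single edgeR 4.0.16 fit (TMM, filterByExpr, quasi-likelihood), with calls at an adjusted p under 0.05. On simulated data for epidermis against upper follicle, with 10783 genes fitted, 78.5% of 200 altered genes (log2 change 1) were found, and 5.99% of calls were false. Thinned shares and ratios are expected values at 5500 UMIs. Deviations of sums of the same slice correlated weakly (mean r from 0.0776 to 0.209), so slice was a block only as an alternative. Others were DESeq2 1.42.0, other regions, strips and leaving out slices. Named genes are the 9, the highest members of each list and the 3 most like genes of each, besides members of small counts, chosen after their values were seen. Members and lists were chosen with earlier results of these data known. Results of some genes that these rules would name are not reported here.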

Additional observations from a re-analysis of the deposited data

Results flagged for a closer look

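Among 72 groups of 4 slices, 6 had a slice set apart, while chance alone does so in about 1 of 20 groups. *Il33* in the upper follicle was 7.83 CPM in slice 3, and the next highest slice had 3.80. *Cd207* in the epidermis was 22.8 CPM in slice 4, and the next had 17.9. *Epcam* in the lower follicle was 216 CPM in slice 4, and the next had 201. The log2 ratio of *Ccl20* in epidermis spots with over without *Cd207* was 3.76 in slice 2, and the next was 0.64. The same ratio of *Cxcl12* was -0.93 in slice 1 of the epidermis, with -0.29 in the nearest slice, and -0.94 in slice 1 of the upper follicle and sebaceous gland, with 0.15 in the nearest slice. The cause was not tested.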

How the results depend on the processing

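Of the fold changes of the epidermis over upper follicle and dermis, 191 alternative values kept their direction and side of the threshold, 6 lost the call, 4 gained one and 2 turned. For *Ccl27a* over upper follicle (0.26, not called), the value turned to -0.19 at a cluster resolution of 0.6 and to -0.46 with regions from marker scores without clusters. It became a call with DESeq2 (0.25), with slice as a replicate block (0.25) and with clusters alone, chosen after seeing the data (0.31). *Cxcl14* over dermis (-0.32) was no longer called at resolution 0.6 (-0.28), without the filter on low genes (-0.30) or with strips (-0.42), and ranged from -0.44 to -0.25 when 1 slice was left out. *Cd207* over dermis was not called with thinned spots (1.19), *Epcam* over dermis became a call with the replicate block (0.22), and *Epcam* over sebaceous gland turned to 0.083 without clusters. The number of the 7 genes called was 3 in place of 6 for epidermis against sebaceous gland with strips, and 1 in place of 3 for sebaceous gland against dermis without clusters. The replicate block changed no other call among these fold changes of the epidermis. Without thinning, shares of epidermis spots were 33.0% for *Il34*, 6.19% for *Ccl20*, 96.9% for *Ccl27a*, 86.3% for *Cxcl14*, 48.2% for *Cxcl12*, 2.60% for *Tslp*, 15.0% for *Il33*, 13.6% for *Cd207* and 86.5% for *Epcam*. Resolution 0.6 gave no sebaceous gland and clusters alone no dermis, so those contrasts had no value. Apart from what the settings themselves change, the cause was not tested. *Ccl20*, *Tslp* and the ratios in *Cd207* spots rest on few UMIs.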
